A study of Mus musculus with 6 samples.

Results

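Lysosome, cathepsin and autophagy genes were followed in primary mouse hepatic stellate cells kept for 24 h with APB-R3, an engineered IL-18 binding protein, or with vehicle. The 36 genes were taken as a fixed list by gene symbol, and all 36 were found among the 40879 symbols counted in each library. They comprised 9 cathepsins, 3 cathepsin inhibitors, 8 other hydrolases, 2 precursor proteins, 2 sterol carriers, 5 membrane proteins, 3 subunits of the proton pump and 4 genes of TFEB and autophagy. There were 3 APB-R3 and 3 vehicle libraries, all from cells of wild-type male animals. The labels disagree on the unit of the APB-R3 dose, 150 µg/ml for the series but 150 µg/kg for single samples. The labels give neither the age or number of the animals nor whether cells were pooled, so the spread behind each p-value may be technical.

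Lysosomes are acidic organelles in which hydrolases break down material delivered by endocytosis and autophagy. Cathepsins are their main proteases, most of them cysteine enzymes made as inactive precursors whose propeptide blocks the active site. Cystatin C, the product of Cst3, is a secreted inhibitor of cysteine cathepsins, and the Ctla2 proteins of mice resemble a free cathepsin L propeptide. TFEB is a transcription factor that binds the CLEAR motif near the start of many lysosomal genes. In the liver, lysosomes serve scavenging by endothelial cells and macrophages, and in stellate cells autophagy delivers lipid droplets to them.

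Totals ran from 8323809 to 10792531 counts in APB-R3 libraries and from 10431310 to 10573916 in vehicle libraries. Levels are CPM, counts scaled to the library total. Because the QuantSeq kit primes at the poly(A) tail, counts do not grow with gene length and CPM was not divided by it. The label hepatic stellate cell is weakly borne out by defining markers, with Lrat, the retinol esterifying enzyme, between 1.09 and 2.88 CPM and Ngfr at 0 in 3 of the 6 libraries. A list of 12 liver sinusoidal endothelial markers summed to between 6241 and 7321 CPM in APB-R3 and between 6742 and 7546 CPM in vehicle, 11 quiescent stellate markers to between 503 and 549 CPM and between 477 and 556 CPM, and 16 macrophage markers to between 663 and 928 CPM and between 595 and 798 CPM. All values are therefore those of whole cultures, in which fewer cells of a type and less RNA per cell cannot be told apart. APB-R3 replicate 1 had the lowest total and the lowest endothelial sum, and APB-R3 replicate 3 the highest macrophage sum. Vehicle replicate 2 stood apart in 10 hepatocyte markers, which summed to 121.5 CPM there and to between 24.0 and 34.8 CPM in the other libraries.

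The upstream sequences of Ctla2a and Ctla2b are shown because these neighbouring copies hold the highest levels among the inhibitors and were both lowest in the same library. Both are from RefSeq on build GRCm38.p6, minus strand, 250 bases before the gene start, at chr13:60936626-60936875 for Ctla2a and chr13:60897448-60897697 for Ctla2b. Capitals mark aligned bases that differ between the copies.
Ctla2a: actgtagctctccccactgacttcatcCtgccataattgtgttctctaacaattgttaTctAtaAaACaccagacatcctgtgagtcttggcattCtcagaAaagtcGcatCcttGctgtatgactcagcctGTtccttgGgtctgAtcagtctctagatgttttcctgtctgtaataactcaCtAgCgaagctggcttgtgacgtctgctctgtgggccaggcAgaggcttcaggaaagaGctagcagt
Ctla2b: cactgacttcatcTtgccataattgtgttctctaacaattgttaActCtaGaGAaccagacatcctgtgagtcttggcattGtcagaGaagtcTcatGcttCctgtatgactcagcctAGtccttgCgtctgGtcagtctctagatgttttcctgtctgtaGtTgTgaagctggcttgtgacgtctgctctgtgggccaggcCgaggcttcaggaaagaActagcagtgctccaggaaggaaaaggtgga
Of 228 aligned bases 208, or 91.2%, were identical and 20 differed. In each copy 22 of the 250 bases had no aligned partner, and these are in lower case too. The last 300 bases of the coding transcripts, where this kit reads, shared no exact run longer than 9 bases of Ctla2a in Ctla2b and 21 bases of Ctla2b in Ctla2a in GENCODE M21. How the authors' counting assigned reads between the copies is not given, so their counts are uncertain.

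Promoters were searched for the CLEAR motif because TFEB is itself a member. RefSeq's table (GRCm38.p6, 250 bases before to 50 after the start) held 32 of the 36 members. The letters CACGTG, which read the same on both strands, were in 9 of the 32 (28.1%) and in 8.09% of all 27025 genes of the table. The longer TCACGTGA, which contains them, was in 6 of the 32 (18.8%) and in 1.12% of all genes, and with G before and C after these letters, the full consensus, it was in 0 of the 32 and in 0.370% of all genes. The 6 members with the 8 letters are shown with 12 bases on each side, the motif in capitals. Ctsa lies on the plus strand at chr2:164833748-164833779, Ctsd on the minus strand at chr7:142387907-142387938, and Gla on the minus strand at chrX:134601181-134601212. Mcoln1 lies on the plus strand at chr8:3500461-3500492, Atp6v0d1 on the minus strand at chr8:105566049-105566080 and Atp6v1a on the minus strand at chr16:44139372-44139403. Ctsa and Gla each hold the letters a second time.
Ctsa: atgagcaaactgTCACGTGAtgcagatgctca
Ctsd: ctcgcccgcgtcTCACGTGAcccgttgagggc
Gla: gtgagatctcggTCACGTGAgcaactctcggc
Mcoln1: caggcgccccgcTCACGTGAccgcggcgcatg
Atp6v0d1: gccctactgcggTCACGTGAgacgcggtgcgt
Atp6v1a: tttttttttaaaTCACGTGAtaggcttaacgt
A match describes the sequence and is no evidence of binding. The log2 fold change of these 6 genes, APB-R3 over vehicle, was 0.02 for Ctsa, −0.03 for Ctsd, 0.11 for Gla, −0.09 for Mcoln1, −0.01 for Atp6v0d1 and −0.04 for Atp6v1a.

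The study's comparison asks what APB-R3 does to stellate cells, and here it is read for the lysosomal genes. With edgeR's quasi-likelihood test, adjusted over all tested genes at a threshold of 0.05, 0 of the 36 members passed, each with an adjusted p of 0.9998, beside 0 of 12776 genes tested (0.0%). At an unadjusted p under 0.05 there were 0 members and 425 of all tested genes (3.33%). Adjusted calls also numbered 0 with DESeq2 and with limma-voom, whose unadjusted p was under 0.05 for 376 and 427 genes and for 0 members. The median log2 fold change was 0.0033 over the 36 members and 0.0032 over all tested genes, with 19 members above 0 and 17 below. All 36 passed the filter on low counts. The groups did not overlap, with every APB-R3 library higher, in 1 member (Ctsk), against 4.75% of tested genes, and with every APB-R3 library lower in 0 members, against 4.16%.

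Intervals were narrow for most of these genes, although the spread behind them may be technical. Single-gene 95% intervals of the log2 fold change, with no adjustment for how many were tested, lay within 1.5-fold in either direction for 33 of 36 members (91.7%). That share was 58.4% of all tested genes, and 73.1% of the 10211 tested genes at or above the level of the lowest member, Tfeb. These sets are not matched for level, since the median was 215 CPM for the members and 21.4 CPM over all tested genes. Ctsc, Ctsk and Tfeb were the members whose interval reached past 1.5-fold. The 36 genes together took 2.25% ± 0.120 of the counts in APB-R3 and 2.26% ± 0.0414 in vehicle (SD, n = 3 each).

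**Figure D1:**
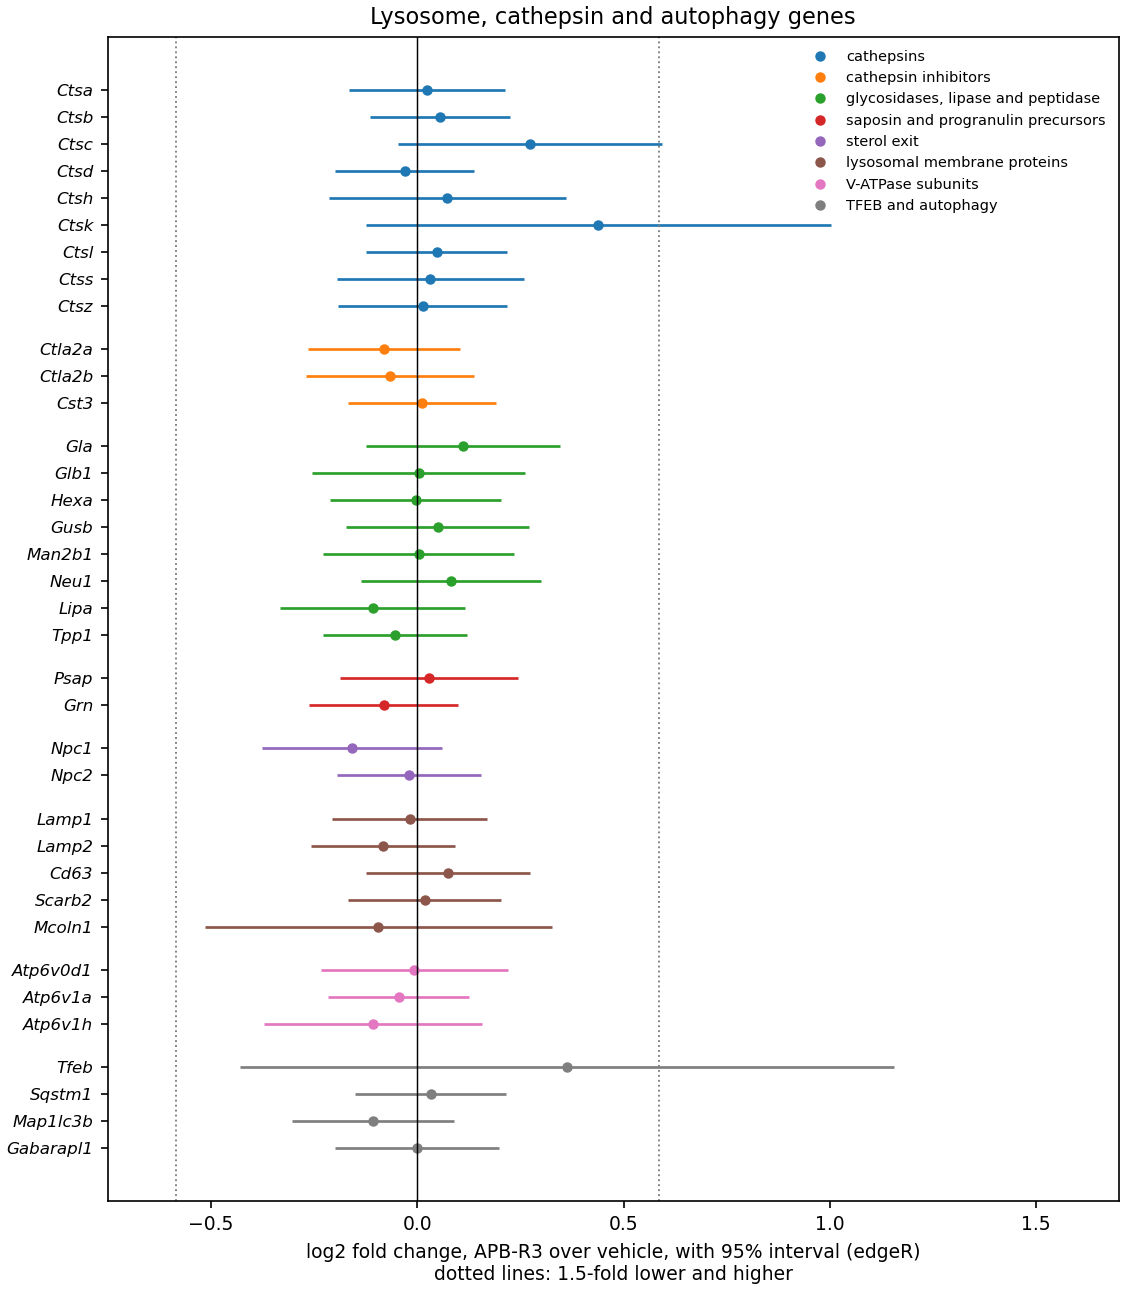
Log2 fold change of each gene, APB-R3 over vehicle, as a point with its 95% interval (edgeR, 3 libraries a group), coloured by role, with dotted lines at 1.5-fold. Points sit near 0, and the intervals of Ctsc, Ctsk and Tfeb alone pass a dotted line.

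Among the cathepsins Ctsb, Ctsl and Ctsd together held 87.6% ± 0.682 of cathepsin CPM in APB-R3 and 87.7% ± 0.851 in vehicle (SD, n = 3 each). Ctsb, a cysteine cathepsin with endopeptidase and dipeptidase activity, had 2088, 1879 and 1993 CPM in APB-R3 replicates 1 to 3 and 1782, 1929 and 2003 CPM in vehicle replicates 1 to 3. Ctsl, the cysteine endopeptidase whose propeptide the Ctla2 proteins resemble, had 1790.05, 1754 and 1960.2 CPM in APB-R3 and 1688, 1706 and 1913 CPM in vehicle. Both groups overlapped for each gene, at log2 fold changes of 0.06 (SE 0.08) for Ctsb and 0.05 (SE 0.08) for Ctsl. Ctsd, the aspartic cathepsin, had 1611, 1665 and 1814 CPM in APB-R3 and 1685, 1813 and 1677 CPM in vehicle. Its groups also overlapped, at −0.03 (SE 0.08). The 3 genes overlapped each other in the range of their libraries, but within every library Ctsb was the highest of them. Ctsl was above Ctsd except in vehicle replicate 2 (1706 against 1813 CPM), so the order of Ctsl and Ctsd is not settled.

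Ctss, Ctsa and Ctsz came next in level. Ctss, the cathepsin of antigen-presenting cells that trims the invariant chain, had 223, 226 and 287 CPM in APB-R3 and 223, 276 and 218 CPM in vehicle. Each group had 1 library above the other 2, APB-R3 replicate 3 and vehicle replicate 2, which also had the highest macrophage sums of their groups (928 and 798 CPM). The part of macrophage RNA in these levels was not tested. Ctsa, a serine carboxypeptidase that also protects beta-galactosidase and neuraminidase, had 201, 218 and 232 CPM in APB-R3 and 204, 219 and 215 CPM in vehicle. Ctsz, a carboxypeptidase, had 214, 182 and 207 CPM in APB-R3 and 208, 210.05 and 177 CPM in vehicle. Log2 fold changes were 0.03 (SE 0.11) for Ctss, 0.02 (SE 0.09) for Ctsa and 0.01 (SE 0.10) for Ctsz, with overlapping groups in all 3.

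Ctsc, Ctsh and Ctsk were the cathepsins with the lowest levels, and in APB-R3 Ctsc and Ctsh had the widest relative spread of the 9. Ctsc, which activates the serine proteases of immune cell granules, had 61.0, 41.0 and 74.6 CPM in APB-R3 and 48.8, 51.0 and 45.4 CPM in vehicle. The APB-R3 libraries lay on both sides of the vehicle libraries. Its log2 fold change of 0.27 (SE 0.15, 95% interval −0.05 to 0.59) had the smallest unadjusted p among the members in edgeR's test (0.0896). It was 0.08 with APB-R3 replicate 3 left out and 0.48 with replicate 2 of that group left out. Ctsh, an aminopeptidase, had 43.1, 47.3 and 66.9 CPM in APB-R3 and 48.6, 48.3 and 52.1 CPM in vehicle. APB-R3 replicate 3 was thus high and the other 2 APB-R3 libraries were below all vehicle libraries, and the log2 fold change of 0.07 (SE 0.14) was −0.13 without that replicate.

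Ctsk, a collagen-degrading cathepsin best known from osteoclasts, had 7.21, 8.62 and 8.24 CPM in APB-R3 and 5.18, 6.24 and 6.28 CPM in vehicle. Every APB-R3 library was above every vehicle library. These levels rest on 60, 93 and 83 counts in APB-R3 and on 54, 66 and 66 in vehicle. The log2 fold change of 0.44 (SE 0.27, 95% interval −0.13 to 1.0) did not pass edgeR's test (unadjusted p = 0.121, adjusted p = 0.9998), and ran from 0.35 to 0.50 with 1 library left out. Ctsk was the member with the highest log2 fold change, and 1 such gene among 36 is no more than the 4.75% of all tested genes whose groups were apart in that direction.

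**Figure D2:**
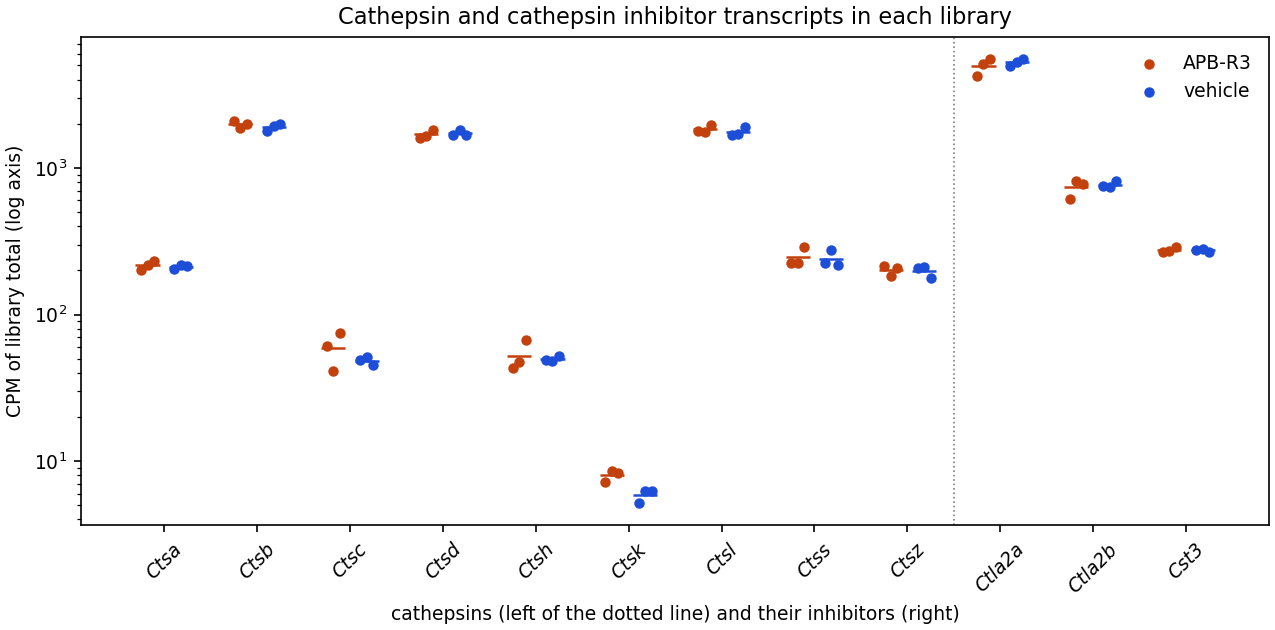
CPM of library total on a log axis for each cathepsin and inhibitor, with a point per library (APB-R3 in orange, vehicle in blue) and a line at the mean of 3. Ctsk at 7.21 to 8.62 CPM in APB-R3 is the one gene whose groups do not overlap, and Ctla2a at 4256 to 5541 CPM in APB-R3 stands above every cathepsin.

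The inhibitors were set beside the cathepsins. Ctla2a was the member with the highest level, eighth of all tested genes by mean CPM. It had 4256, 5155 and 5541 CPM in APB-R3 and 4934, 5269 and 5535 CPM in vehicle, at a log2 fold change of −0.08 (SE 0.09). Ctla2b had 613, 821 and 778 CPM in APB-R3 and 748, 742 and 817 CPM in vehicle, at −0.07 (SE 0.10). APB-R3 replicate 1 was the lowest library for both, and without it the log2 fold changes turned to 0.01 for Ctla2a and 0.04 for Ctla2b. With the counts of both summed into 1 feature the log2 fold change was −0.08. In the same library the endothelial markers were at their lowest sum of 6241 CPM, and in both groups the inhibitor sum and the endothelial sum were lowest in replicate 1 and highest in replicate 3. Of the 12 endothelial markers 11 had a log2 fold change below 0, beside 6295 of all 12776 tested genes, and 0 passed edgeR's adjusted test. APB-R3 replicate 1 was the lowest library for each of these markers except Lyve1. How far their shared direction rests on that library was not tested. The part of endothelial RNA in the Ctla2 levels was not tested.

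The ratio of Ctla2a to Ctla2b was 6.78 ± 0.444 in APB-R3 and 6.82 ± 0.255 in vehicle (SD, n = 3 each). Both copies thus kept their proportion in the library where both were low. Cst3 had 268, 272 and 291 CPM in APB-R3 and 276, 278 and 267 CPM in vehicle, at a log2 fold change of 0.01 (SE 0.09). Its groups overlapped, and APB-R3 replicate 1 did not stand apart in it.

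Summed, the 9 cathepsins had 6237, 6021 and 6644 CPM in APB-R3 and 5894, 6257 and 6307 CPM in vehicle. The 3 inhibitors had 5137, 6247 and 6609 CPM in APB-R3 and 5958, 6289 and 6619 CPM in vehicle. The log2 ratio of cathepsins to inhibitors was 0.28, −0.05 and 0.0075 in APB-R3 and −0.02, −0.0074 and −0.07 in vehicle. APB-R3 replicate 1 was the library that stood apart, through low inhibitor counts. The ratio averaged 0.08 ± 0.18 in APB-R3 and −0.03 ± 0.03 in vehicle (SD, n = 3 each), a difference of 0.11 that was 0.0080 without APB-R3 replicate 1. The difference was 0.11 against the Ctla2 genes alone and 0.02 against Cst3 alone. Taking the 7 cysteine cathepsins only, the log2 ratio was −0.44 ± 0.20 in APB-R3 and −0.58 ± 0.0062 in vehicle (SD, n = 3 each), and the difference of 0.13 was 0.02 without that library. For Ctsl over Ctla2a alone it was −1.43 ± 0.16 in APB-R3 and −1.57 ± 0.05 in vehicle (SD, n = 3 each). That difference of 0.13 was 0.04 without the same library. Which cathepsins each inhibitor acts on was not measured, so these ratios compare transcript levels only.

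**Figure D3:**
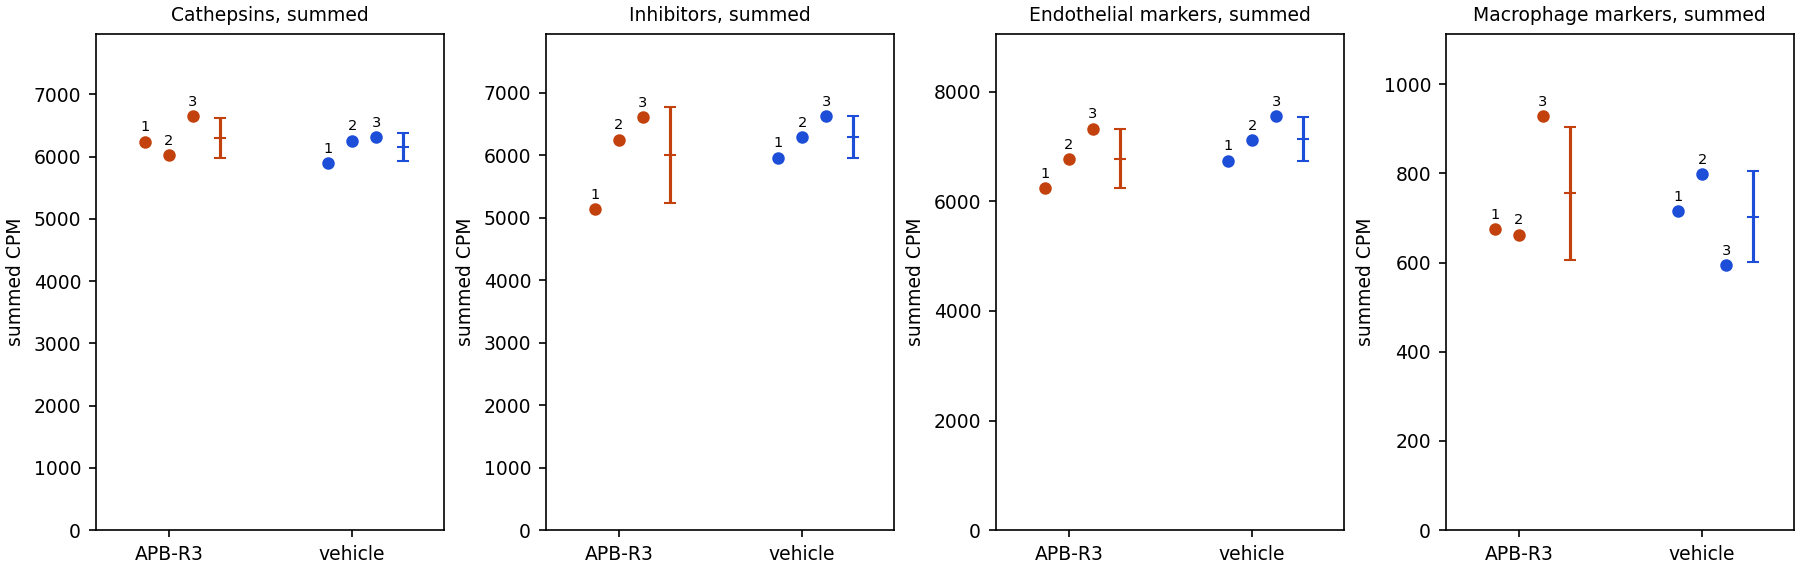
Summed CPM of cathepsins, inhibitors, 12 endothelial markers and 16 macrophage markers in each library, with replicate numbers beside the points and mean ± SD (n = 3 each) to the right of them. APB-R3 replicate 1 is lowest in inhibitors (5137 CPM) and in endothelial markers (6241 CPM), and APB-R3 replicate 3 is highest in cathepsins (6644 CPM) and macrophage markers (928 CPM).

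The other lysosomal hydrolases differed little between the groups, with log2 fold changes from −0.11 (Lipa) to 0.11 (Gla). Lipa, the acid lipase that frees cholesterol and fatty acids, had 128, 105 and 139 CPM in APB-R3 and 121, 139 and 138 CPM in vehicle (−0.11, SE 0.11). Gla, the alpha-galactosidase lacking in Fabry disease, had 64.4, 65.3 and 79.2 CPM in APB-R3 and 65.6, 59.8 and 67.4 CPM in vehicle (0.11, SE 0.11). For both genes the groups overlapped, with APB-R3 replicate 2 low in Lipa and APB-R3 replicate 3 high in Gla. Tpp1, a tripeptidyl peptidase and the highest of these 8, had 476, 511 and 519 CPM in APB-R3 and 491, 536 and 530.5 CPM in vehicle (−0.05, SE 0.08).

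The remaining glycosidases take sugars off glycoproteins and glycolipids. Hexa, a subunit of beta-hexosaminidase, averaged 180.1 ± 22.3 CPM in APB-R3 and 179.9 ± 9.21 CPM in vehicle (SD, n = 3 each). Neu1, the sialidase, averaged 100.1 ± 10.3 CPM in APB-R3 and 94.1 ± 5.53 CPM in vehicle. Man2b1, the alpha-mannosidase, averaged 80.9 ± 8.10 CPM in APB-R3 and 80.4 ± 8.98 CPM in vehicle. Gusb, the beta-glucuronidase, averaged 69.7 ± 3.56 CPM in APB-R3 and 67.1 ± 1.12 CPM in vehicle, and Glb1, the beta-galactosidase, 41.0 ± 3.38 CPM in APB-R3 and 40.7 ± 2.48 CPM in vehicle. For these 5 genes the group means differed by less than the SD of the APB-R3 libraries, and the groups overlapped.

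Psap, which encodes the precursor of the saposins that present lipids to hydrolases, had 1842, 2645 and 2586 CPM in APB-R3 and 2401, 2303 and 2200.0 CPM in vehicle. APB-R3 replicate 1 was the lowest of the 6 libraries and the other 2 APB-R3 libraries were the highest. The log2 fold change of 0.03 (SE 0.10) was 0.17 with APB-R3 replicate 1 left out, but −0.07 with replicate 2 of that group left out. Grn, the precursor of lysosomal granulins, had 577, 549 and 650.05 CPM in APB-R3 and 623, 649 and 599.8 CPM in vehicle (−0.08, SE 0.09). Its highest library was APB-R3 replicate 3 and its other 2 APB-R3 libraries were below every vehicle library.

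The sterol carriers pass cholesterol out of the lysosome. Npc1, the membrane transporter, had 73.8, 72.4 and 84.7 CPM in APB-R3 and 83.3, 88.1 and 85.0 CPM in vehicle. Replicates 1 and 2 of APB-R3 were below every vehicle library and replicate 3 was among them. Its log2 fold change of −0.16 (SE 0.10, 95% interval −0.38 to 0.06) was the lowest of the 36 and did not pass edgeR's test (unadjusted p = 0.146, adjusted p = 0.9998). Npc2, the soluble carrier, had 675, 763 and 782 CPM in APB-R3 and 749, 759 and 734 CPM in vehicle (−0.02, SE 0.08), with APB-R3 replicate 1 low.

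Among lysosomal membrane proteins, Lamp1, an abundant glycoprotein of the limiting membrane, had 1743, 1754 and 1575 CPM in APB-R3 and 1697, 1883 and 1539.9 CPM in vehicle (−0.02, SE 0.09). Lamp2, its paralogue with a role in autophagy, had 469, 510.2 and 484 CPM in APB-R3 and 494, 523 and 526 CPM in vehicle (−0.08, SE 0.08). Cd63, a tetraspanin of late endosomes, had 1662, 1356 and 1331 CPM in APB-R3 and 1475, 1382 and 1261 CPM in vehicle (0.07, SE 0.10). Groups overlapped in each, and for Cd63 APB-R3 replicate 1 was the highest library, without which its log2 fold change was −0.04. Scarb2, the receptor that carries beta-glucocerebrosidase to lysosomes, averaged 217 ± 3.50 CPM in APB-R3 and 214 ± 11.3 CPM in vehicle (SD, n = 3 each). Mcoln1, the calcium channel TRPML1, averaged 17.1 ± 5.18 CPM in APB-R3 and 18.1 ± 1.87 CPM in vehicle, the widest relative spread of any member in APB-R3, with 22.7 CPM in replicate 1 and 12.5 CPM in replicate 2.

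The V-ATPase pumps protons into the lysosome, and its 3 listed subunits had log2 fold changes just below 0. Atp6v1a, the catalytic subunit, had 416, 417 and 436 CPM in APB-R3 and 440.2, 424 and 441 CPM in vehicle (−0.04, SE 0.08). Atp6v1h, a regulatory subunit, had 79.8, 57.3 and 68.3 CPM in APB-R3 and 75.4, 62.9 and 81.8 CPM in vehicle (−0.11, SE 0.13). Both overlapped between groups. Atp6v0d1, of the membrane sector, averaged 89.9 ± 10.5 CPM in APB-R3 and 89.9 ± 5.98 CPM in vehicle (SD, n = 3 each).

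Tfeb had the lowest level of the 36, with 4.45, 4.73 and 5.96 CPM in APB-R3 and 6.14, 2.74 and 2.86 CPM in vehicle. Vehicle replicate 1 was the highest of the 6 libraries and the other 2 vehicle libraries the lowest. These levels rest on 37, 51 and 60 counts in APB-R3 and 64, 29 and 30 in vehicle, and the log2 fold change of 0.36 (SE 0.38, 95% interval −0.43 to 1.16) was 0.84 without vehicle replicate 1 and 0.17 without vehicle replicate 2. A change of that size could not be told from the spread between these libraries, whose coefficient of variation was 49.3% in vehicle. TFEB protein and its entry into the nucleus, by which it is mainly controlled, were not measured.

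Of the autophagy genes, Sqstm1, the cargo receptor p62, had 441, 381 and 389.7 CPM in APB-R3 and 392, 396 and 393 CPM in vehicle (0.03, SE 0.09). Its vehicle libraries were the closest together of any member, while APB-R3 replicate 1 was high and was the library whose removal turned the log2 fold change to −0.04. Map1lc3b, the LC3 protein that coats autophagosomes, had 253, 225 and 209 CPM in APB-R3 and 238, 243 and 257 CPM in vehicle (−0.11, SE 0.09). Replicates 2 and 3 of APB-R3 were below every vehicle library and replicate 1 was among them. Gabarapl1, of the same family as LC3, averaged 188 ± 15.6 CPM in APB-R3 and 187 ± 10.6 CPM in vehicle (SD, n = 3 each). Transcript levels of these genes do not measure the flow of material through autophagy.

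Single libraries stood apart across many of the 36 genes. APB-R3 replicate 3 was the highest of the 6 libraries for 15 members (41.7%), against 18.5% of all tested genes, and 8 of these 15 were cathepsins or inhibitors. APB-R3 replicate 1 was the lowest for 12 members (33.3%), against 21.7% of all tested genes, and APB-R3 replicate 2 for 10 (27.8%), against 19.8%. The median coefficient of variation of the members was 8.95% in APB-R3 and 5.71% in vehicle, and that of the 1983 tested genes at 100 CPM or more was 7.62% in APB-R3 and 5.56% in vehicle. The wider spread among APB-R3 libraries was therefore shared by well-counted genes as a whole.

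**Figure D4:**
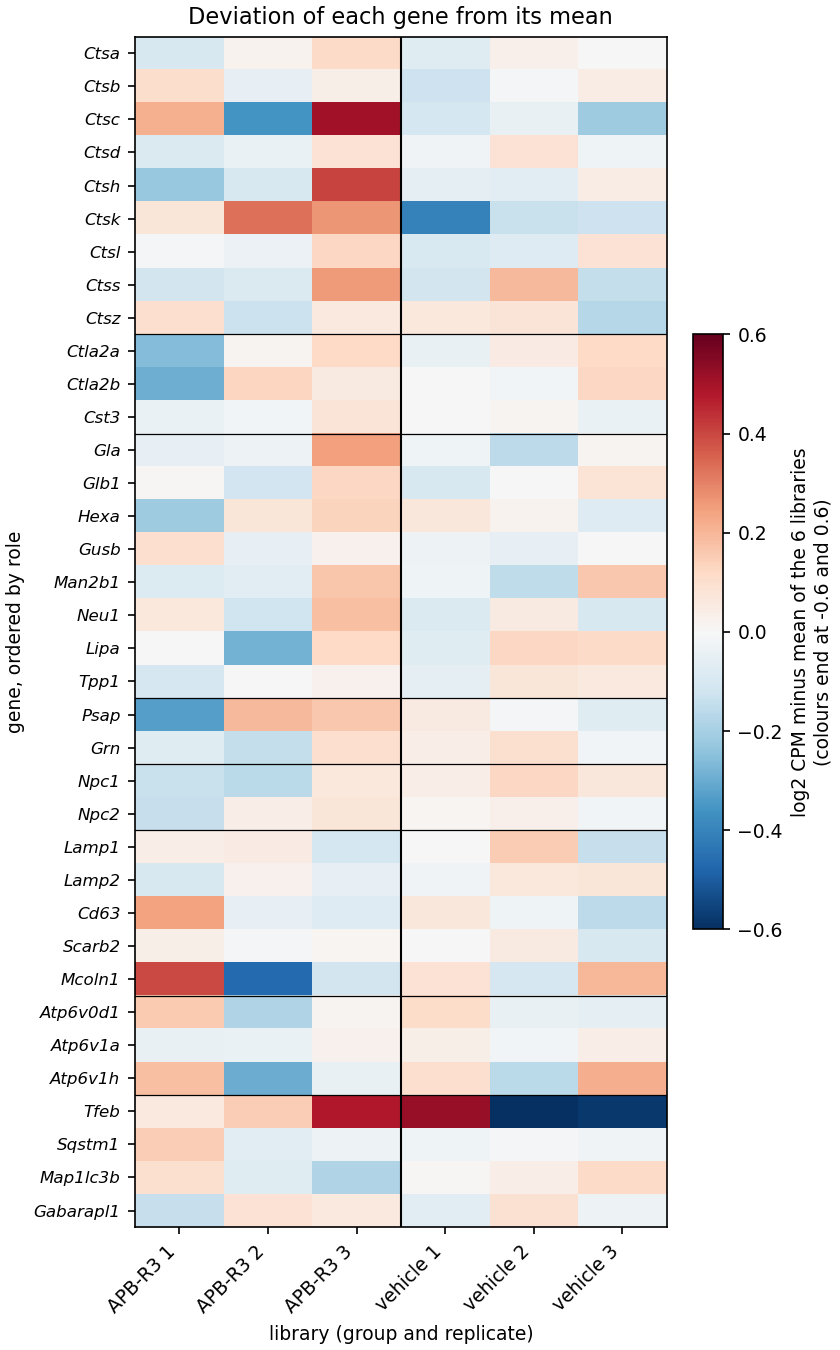
Heat map of log2 CPM minus the mean of the 6 libraries, with genes in rows ordered by role and libraries in columns, APB-R3 left of the black line. APB-R3 replicate 3 is red in many rows (highest in 15 of 36) and replicate 1 is blue for Ctla2a, Ctla2b and Psap. Tfeb is red in vehicle replicate 1 and blue in vehicle replicates 2 and 3, reaching the end of the colour scale in vehicle replicate 2.

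The rest of the pathway was read from 107 further genes listed by role, of which 101 passed the filter on low counts. In edgeR's test 0 of the 101 passed over all genes, each with an adjusted p of 0.9998, and 2 had an unadjusted p under 0.05, both higher with APB-R3, beside 1.75% of tested genes in that direction, and 0 lower, beside 1.57%. Idua, the iduronidase that degrades glycosaminoglycans, had 48.5, 42.5 and 44.6 CPM in APB-R3 and 31.3, 34.5 and 42.1 CPM in vehicle, a log2 fold change of 0.32 (SE 0.13) with groups that did not overlap (unadjusted p = 0.0243 in edgeR). Calcoco1, a receptor for autophagy of the endoplasmic reticulum, had 129, 116 and 100.3 CPM in APB-R3 and 96.4, 106 and 81.4 CPM in vehicle, at 0.28 (SE 0.12) with overlapping groups (unadjusted p = 0.0301 in edgeR). The median log2 fold change was −0.02 for 26 hydrolases and cofactors, −0.0055 for 28 membrane and sorting genes, 0.02 for 12 V-ATPase genes, 0.04 for 31 autophagy genes and regulators and −0.07 for the 4 tested of 10 cysteine protease inhibitors.

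In 3 of those 5 lists the smallest unadjusted p did not reach 0.05. Vps18, of the tethering complex for fusion with lysosomes, averaged 26.0 ± 1.74 CPM in APB-R3 and 21.4 ± 1.64 CPM in vehicle (log2 fold change 0.28, SE 0.15), with every APB-R3 library above every vehicle library. Atp6v1g1, a V-ATPase subunit, averaged 114 ± 13.3 CPM in APB-R3 and 101 ± 4.34 CPM in vehicle (0.16, SE 0.11). Cstb, the intracellular inhibitor stefin B, had 552, 575 and 553 CPM in APB-R3 and 542, 546 and 521 CPM in vehicle (0.06, SE 0.08). Its groups did not overlap although the difference was small, and its level was above that of Cst3. Of the 101 genes, groups were apart upward in 5 and downward in 2, Arsb and Lamtor4. These counts stand beside 4.75% and 4.16% of all tested genes, and Arsb and Lamtor4 were named after their values were seen. Lamtor4, of the complex that anchors mTORC1 to lysosomes, had 42.0, 42.5 and 42.5 CPM in APB-R3 and 49.6, 47.2 and 45.3 CPM in vehicle (−0.17, SE 0.12). Arsb, the sulfatase that acts on dermatan sulfate, had 4.32, 3.71 and 4.47 CPM in APB-R3 and 5.85, 6.62 and 4.57 CPM in vehicle (−0.45, SE 0.33).

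Overlap with other genes limits some of these counts. In GENCODE M21, 12 of the 36 members share exon sequence with a gene on the opposite strand, and the strand setting of the counting is not given. The partner held most counts relative to the member for Map1lc3b, where Zcchc14 had 32.7% as many counts, for Ctsz, where Nelfcd had 19.0%, and for Npc1, where Rmc1 had 18.2%. On the same strand 5 members share exon sequence with another annotated gene. Glb1 does so with Tmppe, which had 72.6% as many counts. The other 4 are Ctsd, Ctsl, Ctla2a and Ctla2b, and Gm49391 overlaps both Ctla2 copies, so the inhibitor counts and the ratios built on them carry this uncertainty too.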

How the data were processed

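Gene expression was measured in 6 libraries made from 500 ng of total RNA each with the Lexogen QuantSeq kit, per the labels' protocols. The deposited values are whole-number counts per gene symbol, not normalized by the authors. The submitters' processing notes name bcl2fastq 2.20.0.422, fastp, STAR and HTSeq and the build GRCm39. Not given in the sources used here are the strand setting, any use of molecular identifiers and the annotation release. Groups and replicate numbers came from the sample titles; column headers inside the files are numbered 1 higher.

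Counts were tested with edgeR 4.0.16 (R 4.3.3; TMM scaling, quasi-likelihood fit, two-sided, Benjamini-Hochberg over all tested genes) after its filter by expression (minimum count 10), which kept 12776 of 20496 genes with a count. The common biological coefficient of variation was 0.145. DESeq2 1.42.0 and limma 3.58.1 were alternatives. Totals were 8323809 counts or more in each library. The procedure was tested on simulated data.

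The 36 members, the other gene lists and the markers were chosen with earlier results of these data known. Values in every library are given for cathepsins, inhibitors and, in each other role, the 2 genes with the smallest p and the 1 with the highest level; of the further pathway genes, those with an unadjusted p under 0.05 and the smallest p of each list are named. Sequences are from RefSeq (GRCm38.p6) and were not converted to GRCm39; gene overlaps are from GENCODE M21.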

Additional observations from a re-analysis of the deposited data

How the results depend on the processing

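The number of members passing was 0 under each of 15 alternative settings, with a lowest adjusted p of 0.902 (edgeR). Genes passing numbered 20 with no low-count filter and between 0 and 1 with a library left out (1 without vehicle replicate 3). With a library left out, the median log2 fold change of the members ran from −0.0332 to 0.0328, negative without APB-R3 replicate 3, vehicle replicate 1 (−0.0115) or vehicle replicate 3 (−0.0254), and the log2 cathepsin to inhibitor difference from 0.0080 to 0.175. Deviations of libraries with the same replicate number correlated at 0.022, 0.027 and 0.048, and those with different numbers at −0.026 to −0.003. Each library thus correlated best with its own number. These values are small and do not settle whether the numbers pair the samples. With a replicate block, 0 genes and 0 members passed, 539 genes had an unadjusted p under 0.05 against 425 without it, and the median was 0.0034. A minimum of 5 CPM in 3 libraries removed Tfeb. An unadjusted p under 0.05 was reached by 1 member with no low-count filter, by 2 without APB-R3 replicate 1, by 1 without APB-R3 replicate 2 and by 3 without both APB-R3 replicate 1 and vehicle replicate 2, a setting chosen after seeing the data.

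The log2 fold change kept its sign in every setting for 14 members and reversed in some for 22, in 56 of 538 values; the cause was not tested. Gabarapl1 turned to 0.0015 with DESeq2, 0.0014 with DESeq2 size factors and with limma-voom (0.0014), 0.00076 with the 5 CPM minimum and 0.0057 with library totals only, where Hexa turned to 0.0023. With libraries left out, singly or those 2 together, the ranges were −0.0157 to 0.101 for Ctsa, −0.0694 to 0.0468 for Ctsd, −0.129 to 0.185 for Ctsh, −0.0838 to 0.217 for Ctss and −0.0676 to 0.0741 for Ctsz. They were −0.151 to 0.0289 for Ctla2a, −0.158 to 0.0437 for Ctla2b and −0.0136 to 0.0493 for Cst3. Among hydrolases they were −0.0465 to 0.0569 for Glb1, −0.0602 to 0.105 for Hexa, −0.0709 to 0.0875 for Man2b1 and −0.0968 to 0.0106 for Tpp1. Psap ran from −0.0695 to 0.184, Npc2 from −0.0501 to 0.0579, Lamp1 from −0.0916 to 0.0692, Cd63 from −0.0437 to 0.143, Scarb2 from −0.0269 to 0.0638 and Mcoln1 from −0.423 to 0.0852. Atp6v0d1 ran from −0.112 to 0.0735, Atp6v1h from −0.327 to 0.0025, Sqstm1 from −0.0427 to 0.0680 and Gabarapl1 from −0.0491 to 0.118. Members that kept their sign moved as well with 1 library left out: Ctsb ran from 0.0064 to 0.0890, Ctsl from 0.0084 to 0.102, Gla from 0.0204 to 0.156, Gusb from 0.0048 to 0.0803, Neu1 from 0.0224 to 0.153, Lipa from −0.185 to −0.0063, Grn from −0.142 to −0.0356, Npc1 from −0.221 to −0.121, Lamp2 from −0.122 to −0.0589, Map1lc3b from −0.193 to −0.0354 and Atp6v1a from −0.0556 to −0.0393. Counts were lowest for Tfeb and Ctsk, with fewer than 100 counts in each library.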
